A study of Rattus norvegicus with 9 samples.

Results

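Cytosolic ribosomal proteins are the protein part of the ribosome outside mitochondria. Together with the ribosomal RNAs they build a small subunit, which holds the mRNA and reads its codons, and a large subunit, which joins the amino acids. Their genes are expressed in every cell, they are usually regulated as a block, and their mRNAs are known for a pyrimidine tract at the 5′ end, the TOP motif, through which mTOR signalling sets their translation. In neural stem cells (NSCs), ribosome production is linked to growth and proliferation, and it is known to change as cells differentiate. The rule used symbols and no measured value, but this gene group was chosen with earlier results of these data known. A row of the count table was a member if its symbol was Rpl or Rps with a number and an optional letter, or Rpsa, Rplp0, Rplp1 or Rplp2. Kinases of the ribosomal protein S6, pseudogenes and rows marked as non-coding were left out. This rule gave 81 of the 23953 genes in the table, 50 of the large subunit and 31 of the small subunit.

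The NSCs are labelled as cells of the rat spinal cord and came, by the methods, from newborn animals. They were kept in a differentiation medium with B-27, N-2, growth factors and serum, which the 3 groups shared. The Con group received the medium alone. The Exo group also received exosomes, which are small secreted vesicles, of bone marrow mesenchymal stem cells (BMSCs), which by the methods carried an empty lentiviral vector, and the pLV-Exo-Wnt5a group received exosomes of BMSCs that overexpressed Wnt5a from a lentiviral vector. Each group had 3 RNA-seq libraries (9 in all), which carry the same batch label. The sources used here do not say whether the libraries of a group came from separate cultures, so p-values measure the spread between these libraries, which may be technical. The dose of exosomes and the time of RNA collection are not given in the labels.

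Total counts lay between 32765138 and 40427647 per library, and 3 counts, below which a gene cannot be told from absent, were worth 0.0727 to 0.0913 CPM (counts scaled to one fixed library size; counting error only). The 8 neural stem cell markers, 10 neuron markers and 8 astrocyte markers examined were each at 1 CPM or more in every library. In bulk samples such as these, fewer cells of a type and less RNA per cell cannot be told apart. Of 14 spinal Hox genes listed, the 3 in the table were at or under 3 counts in every library, whereas the 8 forebrain markers were at 1 CPM or more in every library, which goes against the labelled tissue. Con replicate 1 stood apart from the other libraries. Its mean distance to the others was 76.6 against 59.8 to 66.0 for the remaining libraries, its TMM factor, the correction for library composition, was 0.965 against 0.996 to 1.02, and its mitochondrially encoded genes took 0.722% of the counts against 0.828% to 1.13%. Medians against Con, and the differences of members that this library moved by over 1.5 times, are therefore also given without it.

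Sequences around the annotated transcription start show the TOP motif where it was found. The motif searched was a C at the start base followed by at least 4 further pyrimidines (C or T) on the sense strand. Promoter sequences of the rat RefSeq annotation (GRCr8) matched 63 of the 81 members by symbol. The count table itself carries mouse symbols and gene IDs, and the build its reads were aligned to is not given in the sources used here. The motif stood exactly at the start base in 23 of the 63 (36.5%), compared with 881 of the 33469 promoters in the table (2.63%). When the C could lie up to 5 bases to either side of the start, 39 members (61.9%) held it, against 17.0% of all promoters. A member was counted if any of its promoters held the motif, whereas the share of all promoters counted each promoter by itself. The motif at the start base was found in 17 of 39 large subunit members (43.6%) and in 6 of 24 small subunit members (25.0%), whereas within 5 bases it was found in 24 (61.5%) and 15 (62.5%) of them. A match describes the letters at an annotated position, and a start annotated a few bases off would hide a tract. The windows below run from 15 bases before the start to 15 bases from it, with the tract in capitals. The first 4 are shown because they hold the motif, and they include Rplp0, the stalk base, and Rps15, whose level is described below.
Rpl10 (chrX:157205835-157205864, plus strand): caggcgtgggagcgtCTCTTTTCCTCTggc
Rpl37a (chr9:81748076-81748105, plus strand): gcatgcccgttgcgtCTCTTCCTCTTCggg
Rps15 (chr7:10068101-10068130, minus strand): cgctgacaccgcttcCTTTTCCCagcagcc
Rplp0 (chr12:46718376-46718405, minus strand): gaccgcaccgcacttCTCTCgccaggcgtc
The next pair is shown because Rps16 and Rplp2 had the smallest p-values in the comparisons with the Con group, and no tract is at their annotated start.
Rps16 (chr1:92770643-92770672, plus strand): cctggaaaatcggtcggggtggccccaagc
Rplp2 (chr1:205975906-205975935, plus strand): cctttcgccgccggacgccgccgaggtcgc

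As a block, the ribosomal protein genes took a larger share of the counts in the Con group than in either exosome group. Their summed share was 4.29%, 3.81% and 3.70% in Con replicates 1 to 3, 3.48%, 3.54% and 3.52% in the Exo libraries, and 3.41%, 3.37% and 3.54% in the pLV-Exo-Wnt5a libraries. The group values were 3.93% ± 0.313, 3.51% ± 0.0296 and 3.44% ± 0.0887 (SD, n = 3 each). Each Con library was above each of the 6 exosome libraries, and the Exo and pLV-Exo-Wnt5a libraries overlapped. Con replicate 1 was the highest, and the Con group had the widest spread. The large subunit took 2.29% ± 0.176, 2.05% ± 0.0192 and 2.01% ± 0.0544 in Con, Exo and pLV-Exo-Wnt5a, in this order, and the small subunit took 1.64% ± 0.137, 1.46% ± 0.0117 and 1.43% ± 0.0344 (SD, n = 3 each). The ratio of large to small subunit counts stayed between 1.39 and 1.41 in the 9 libraries, so both subunits kept the same proportion while the sum differed.

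**Figure D1:**
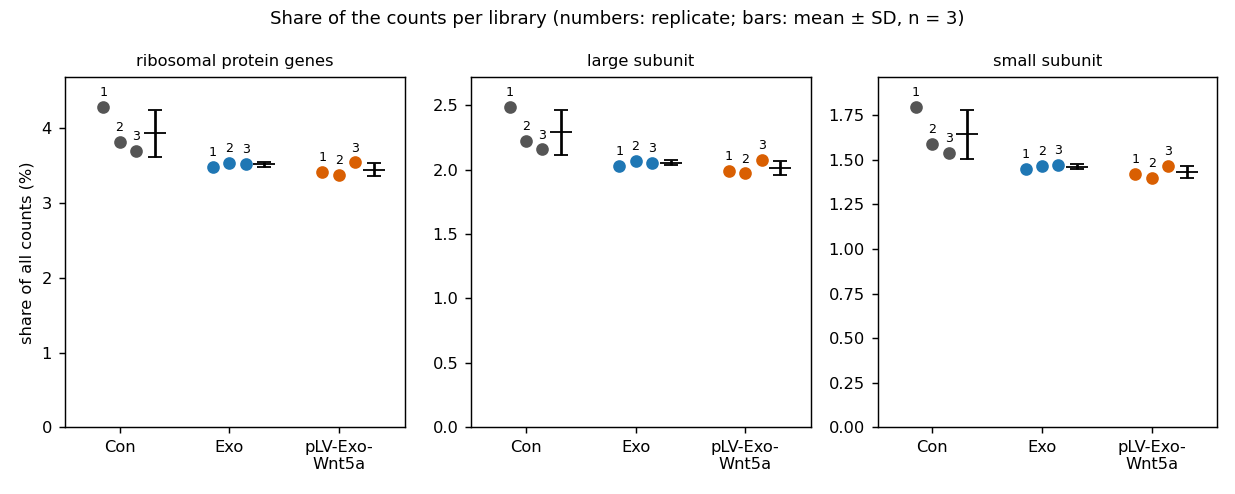
Share of all counts (%, y axis from 0) taken by the 81 ribosomal protein genes, by the 50 large subunit genes and by the 31 small subunit genes, in each library of the 3 groups (x axis; points numbered by replicate, bars show the mean ± SD, n = 3). The Con libraries lie at 3.70% to 4.29% in the left panel, above the Exo libraries (3.48% to 3.54%) and the pLV-Exo-Wnt5a libraries (3.37% to 3.54%), with Con replicate 1 at the top.

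Of the 81 members, 79 passed the filter on low counts over the 9 libraries. Rpl3l, the striated muscle counterpart of Rpl3, had between 0 and 4 counts per library, and Rpl39l, a testis-enriched counterpart of Rpl39, had 0 or 1, so both were at the limit of detection. For 64 of the 79 members (81.01%), the 3 Con libraries all lay above the 6 exosome libraries. This was true of 763 of the 15458 genes that passed (4.94%), and the reverse order was found for none of the members, against 3.29% of all genes. When Con replicate 1 was set aside, Con replicates 2 and 3 were above the 6 exosome libraries for 65 members (82.3%), against 6.83% of all genes. The 15 members that did not separate in the comparison of all libraries were Rpl4, Rpl9, Rpl15, Rpl21, Rpl22, Rpl24, Rpl32l, Rpl34, Rpl36a, Rpl38, Rpl39, Rps6, Rps20, Rps27a and Rps27l.

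Con replicate 1 was the highest of the 9 libraries for 76 of the 79 members (96.2%), the exceptions being Rpl4, Rpl5 and Rps27a. The same library was the highest for 26.0% of all genes, and for 49.3% of the 2381 other genes at 100 CPM or more, a set of abundant genes that was chosen after the values were seen. In Con replicate 1 the members were shifted by a median of 0.33 on the log2 scale from their mean over the other 8 libraries, compared with 0.08 in Con replicate 2 and 0.03 in Con replicate 3. The lowest library was most often pLV-Exo-Wnt5a replicate 2, with 42 members, and next pLV-Exo-Wnt5a replicate 1, with 18. The members were tightly measured once Con replicate 1 was left out. Their median within-group SD of log2 CPM then went from 0.0906 to 0.0372, whereas that of all genes went from 0.177 to 0.142 and that of the other abundant genes from 0.0941 to 0.0657.

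**Figure D2:**
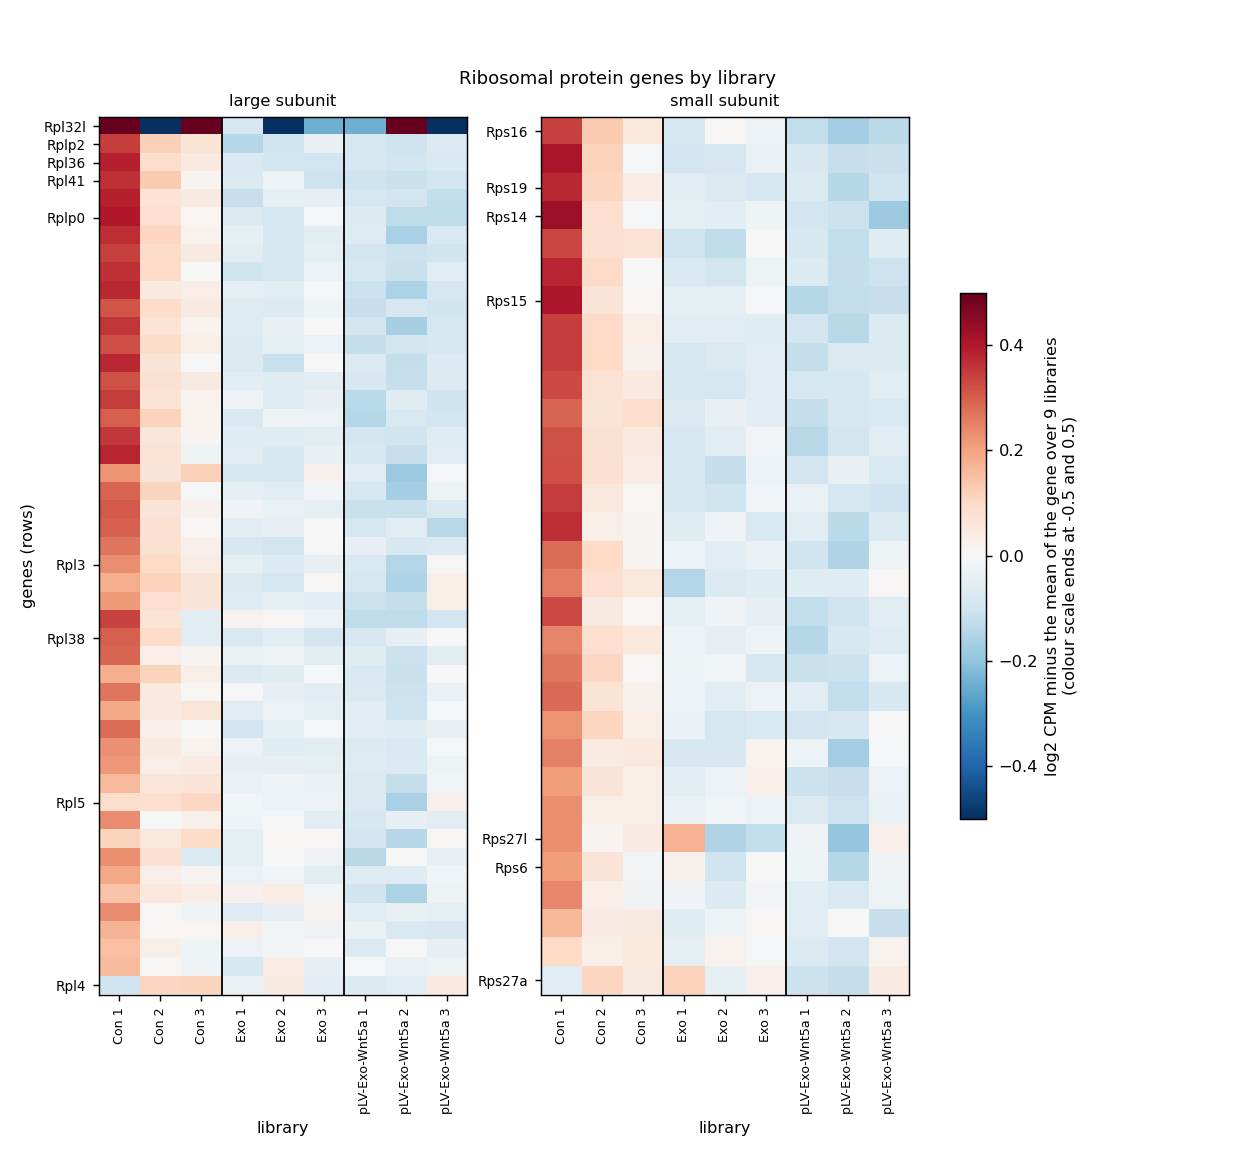
Log2 CPM of each of the 79 members that passed the filter minus its mean over the 9 libraries (colour, red above and blue below the mean, scale ending at -0.5 and 0.5), with genes as rows, ordered by their mean in the Con libraries and labelled for some of the genes described in the text, and libraries as columns, large subunit left and small subunit right. Con replicate 1 is the reddest column, Con replicates 2 and 3 are pale red and the 6 exosome libraries are mostly pale blue; Rpl32l, with 0.145 to 0.623 CPM, varies without order, and Rpl4 and Rps27a are lower in Con replicate 1 than in the other Con libraries.

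The first comparison asked what exosomes of BMSCs without added Wnt5a did to the NSCs. In the Exo group, each of the 79 members tested had a lower value than in the Con group, against 49.7% of all genes (50.3% were higher), but none passed the test of edgeR at Q under 0.05 (Benjamini-Hochberg over 15070 genes; lowest member Q = 0.265), and DESeq2 called none either. The median log2FC of the members was -0.19, and that of all genes was 0.00. At an unadjusted p under 0.05, 28 members (35.4%) were lower and 0 higher, against 6.01% of all genes lower and 8.92% higher, and at Q under 0.05 the share of all genes that were lower was 0.00664%, a single gene. For 64 members (81.01%) each Exo library was below each Con library, against 12.4% of all genes, and the reverse held for 0 members, against 10.9%. By subunit, 15 of 48 large subunit members and 13 of 31 small subunit members were lower at an unadjusted p under 0.05, with medians of -0.19 and -0.21. Without Con replicate 1, the 79 members still had lower values in the Exo group, the median was -0.10 in place of -0.19 (-0.10 for the large and -0.11 for the small subunit), 21 members had an unadjusted p under 0.05 against 5.25% of all genes, and none had Q under 0.05. The median with this library was thus 1.81 times the median without it.

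Abundant genes in general had somewhat lower values in the Exo group. Among the 2381 other genes at 100 CPM or more, the median log2FC was -0.07, 68.5% had lower values and 11.6% were lower at an unadjusted p under 0.05. These values were -0.03, 63.5% and 10.4% without Con replicate 1. The part of abundance in the members' difference was not tested.

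Among the members with the smallest p-values were Rplp2 and Rpl36, both of the large subunit. Rplp2, which with Rplp1 forms the flexible stalk that recruits translation factors, was measured at 408, 348 and 336 CPM in Con replicates 1 to 3, 291, 299 and 313 CPM in the Exo libraries and 303, 299 and 306 CPM in those of pLV-Exo-Wnt5a. Its 3 Exo values were all below its 3 Con values, and the log2FC was -0.28 (standard error 0.09, Q = 0.265) in edgeR's quasi-likelihood test. Rpl36, a small protein of the large subunit, was at 304, 247 and 241 CPM in the Con group, 220.2, 217 and 217 CPM in the Exo group and 219, 217 and 220.1 CPM in pLV-Exo-Wnt5a. The 6 exosome libraries lay within a few CPM of each other, below the Con libraries, and edgeR gave a log2FC of -0.28 (standard error 0.10, Q = 0.277). In Rplp2 and Rpl36, Con replicate 1 was the highest library. Without it, the log2FC was -0.19 for Rplp2 and -0.17 for Rpl36, so that the Rpl36 value moved by over 1.5 times.

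**Figure D3:**
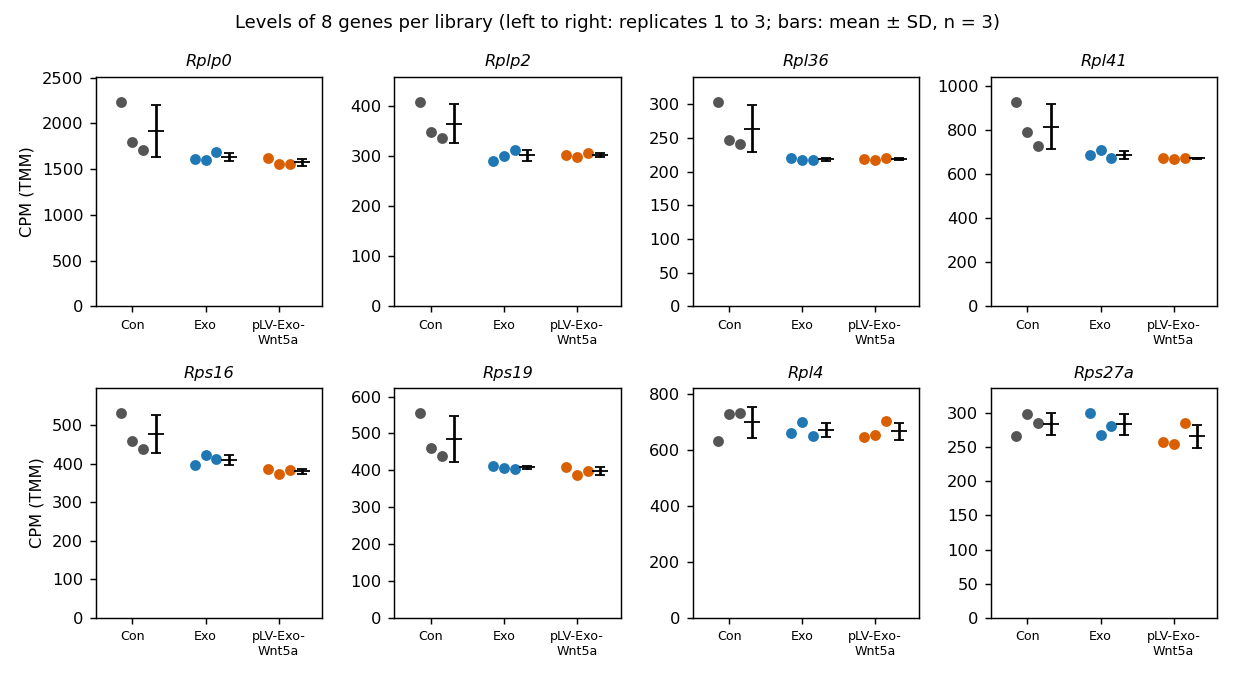
Levels (CPM after TMM normalization, y axis from 0) of 8 ribosomal protein genes in each library (points, replicates 1 to 3 from left to right) of the 3 groups (x axis), with the mean ± SD (bars, n = 3). Rplp0, Rplp2, Rpl36, Rpl41, Rps16 and Rps19 have their 3 Con points above the 6 exosome points, whereas Rpl4 and Rps27a overlap between the groups.

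The second comparison asked what overexpression of Wnt5a in the donor cells added to the exosomes. The members had close values in the Exo and pLV-Exo-Wnt5a libraries. The Exo libraries are the same ones that were compared with Con above. Of 78 members tested (Rpl32l did not pass the filter here), 63 had lower values (48.6% of all genes) and 15 higher values (51.4% of all genes), with log2FC between -0.10 (Rpl39) and 0.07 and a median of -0.02, against 0.00 for all 15132 genes. None passed Q under 0.05 in edgeR, none had an unadjusted p under 0.05 in either direction (5.07% of all genes were higher and 6.91% lower at that level; at Q under 0.05, 0.344% and 0.0925%), and DESeq2 called none. The lowest member Q was 0.477. For 19 members (24.4%) the pLV-Exo-Wnt5a libraries all lay below the Exo libraries, against 8.9% of all genes, and for 0 all lay above, against 7.5%.

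Rpl39, a short protein that lines the exit tunnel, had the smallest p-value here. It was measured at 292, 242 and 223 CPM in Con replicates 1 to 3, 234, 232 and 227 CPM in the Exo libraries and 212, 212 and 216 CPM in those of pLV-Exo-Wnt5a, and its log2FC was -0.10 (standard error 0.05, Q = 0.477) from edgeR. The 3 pLV-Exo-Wnt5a values of Rpl39 were all below the Exo values, and Con replicate 3 fell inside the range of the exosome libraries. Rps15, a protein of the small subunit head near the decoding site, was at 763, 603 and 581 CPM in the Con group, 559.8, 560.0 and 573 CPM in the Exo group and 522, 530.0 and 533 CPM in pLV-Exo-Wnt5a, with a log2FC of -0.08. Rpl36a was at 159.9, 150.3 and 148 CPM (Con), 147, 149 and 143 CPM (Exo) and 135, 129.9 and 142 CPM (pLV-Exo-Wnt5a), with a log2FC of -0.09. Both had 3 pLV-Exo-Wnt5a values below the 3 Exo values. Among the members with higher values were Rpl38 (0.05), Rps27 (0.02) and Rps29 (0.02), and their groups overlapped. The Rps27 and Rps29 values changed sign when single libraries were left out. Rpl38, which in the mouse is needed for translation of some Hox mRNAs, was at 202, 176 and 158 CPM in the Con group, 156, 158 and 154 CPM in the Exo group and 155, 159.7 and 165 CPM in pLV-Exo-Wnt5a. Rps27 was at 334, 282 and 274 CPM (Con), 252, 246 and 262 CPM (Exo) and 251, 261 and 253 CPM (pLV-Exo-Wnt5a) and Rps29, like Rps27 a zinc-binding protein, at 357, 329.5 and 313 CPM (Con), 299, 288 and 289.9 CPM (Exo) and 286, 289 and 306 CPM (pLV-Exo-Wnt5a). In these 3 genes the Exo and pLV-Exo-Wnt5a ranges overlapped.

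The third comparison set the pLV-Exo-Wnt5a group against the Con group, with the same Con libraries as the first, so its values are not independent of those above. Each of the 79 members tested was below its Con value here (49.2% of all 15089 genes were, and 50.8% were above it), and the median log2FC was -0.23 against 0.00 for all genes. At an unadjusted p under 0.05, 48 members (60.8%) were lower and 0 higher, against 4.15% and 4.2% of all genes. None passed Q under 0.05 in edgeR (lowest member Q = 0.419), where 0.00663% of all genes were lower and 0.0795% higher, and DESeq2 called none on the 6 libraries and 1, Rps16, when it was fitted on all 9. For 71 members (89.9%) the groups did not overlap, against 9.41% of all genes, and none lay wholly above, against 7.67%. Large and small subunit members had medians of -0.22 and -0.23, with 27 of 48 and 21 of 31 lower at an unadjusted p under 0.05. Without Con replicate 1, the median was -0.14 in place of -0.23 (-0.14 for each subunit), so that the median with this library was 1.7 times that without it, and 45 members had an unadjusted p under 0.05, against 5.01% of all genes. None had Q under 0.05 by edgeR in this setting (lowest 0.203). Among the other genes at 100 CPM or more, the median was -0.04 and 7.64% were lower at that level, which became 0.00 and 8.36% without Con replicate 1.

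**Figure D4:**
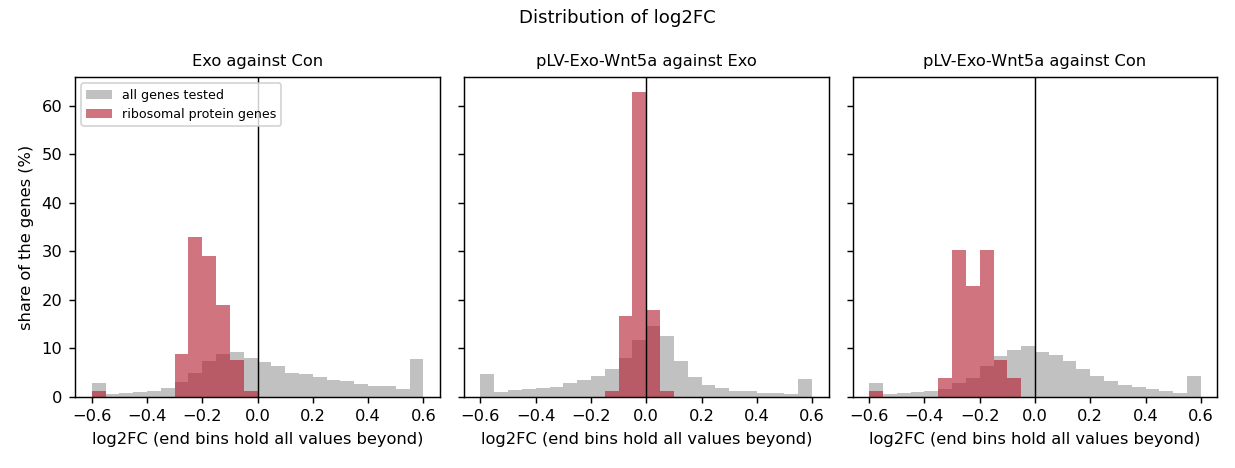
Distribution of log2FC (x axis, bins of equal width, the end bins holding all values beyond) for the ribosomal protein genes tested (red) and for all genes tested (grey), as a share of each set (%, y axis), in the 3 comparisons. In both comparisons with Con the members form a narrow peak left of 0, with medians of -0.19 and -0.23, and for pLV-Exo-Wnt5a against Exo they are centred close to 0, with a median of -0.02.

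Rps16, a small subunit protein that reaches the peptidyl-tRNA site, had the smallest p-value of the members. It was measured at 532, 460.2 and 437 CPM in Con replicates 1 to 3, 397, 422 and 412 CPM in the Exo libraries and 386, 373 and 383 CPM in those of pLV-Exo-Wnt5a. For pLV-Exo-Wnt5a against Con the log2FC of Rps16 was -0.33 (standard error 0.09, Q = 0.419) by edgeR, and against Exo it was -0.10. Its 3 groups were ordered without overlap, Con highest and pLV-Exo-Wnt5a lowest. Rps19, needed for maturation of the small subunit rRNA and often mutated in Diamond-Blackfan anaemia, was at 555, 461 and 439 CPM in the Con group, 413, 407 and 404 CPM in the Exo group and 408, 388 and 399 CPM in pLV-Exo-Wnt5a, and its log2FC against Con was -0.29 (standard error 0.10, Q = 0.512) by edgeR. Rpl41, a very short and basic peptide, was at 929.6, 791 and 728 CPM in the Con group, 686, 708 and 672 CPM in the Exo group and 672, 669 and 676 CPM in pLV-Exo-Wnt5a, and its log2FC against Con was -0.29 (standard error 0.10, Q = 0.524) by edgeR. Without Con replicate 1, the log2FC against Con was -0.24 for Rps16, -0.18 for Rps19 and -0.18 for Rpl41, and those of Rps19 and Rpl41 thus moved by over 1.5 times. For Rplp2 the value was -0.28 with all libraries, the same as in the Exo group, and -0.18 without Con replicate 1. In Rps19 and Rpl41 the Con libraries lay above the 6 exosome libraries, and the exosome groups overlapped.

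By role, the ribosomal stalk had the lowest medians. The 4 stalk genes had a median log2FC of -0.25 (Exo) and -0.28 (pLV-Exo-Wnt5a) against Con, with 2 and 3 of them lower at an unadjusted p under 0.05, against 6.01% and 4.15% of all genes. The stalk medians without Con replicate 1 were -0.12 and -0.16, with 1 and 3 at that level, against 5.25% and 5.01% of all genes. For pLV-Exo-Wnt5a the 3 genes of the 5S particle then had a median as low (-0.16). Rplp0, the base on which the stalk is built, was at 2238, 1799.7 and 1706 CPM in Con replicates 1 to 3, 1614, 1597 and 1687 CPM in the Exo libraries and 1617, 1553 and 1552 CPM in those of pLV-Exo-Wnt5a. Rplp1 was at 997, 799 and 786 CPM in the Con group, 703, 739 and 741 CPM in the Exo group and 718, 714 and 701 CPM in pLV-Exo-Wnt5a. In both genes the Con libraries were above the exosome libraries, with Con replicate 1 far above the rest. Rpl5 and Rpl11, which bind the 5S rRNA and can hold back Mdm2, the ubiquitin ligase of p53, differed in one respect. Rpl11 was at 551, 469 and 449 CPM in the Con group, 420.2, 425 and 432 CPM in the Exo group and 405, 414 and 415 CPM in pLV-Exo-Wnt5a, again with Con replicate 1 highest. Rpl5 was at 365, 364 and 369 CPM in the Con group, 340.2, 336 and 337 CPM in the Exo group and 326, 307 and 349 CPM in pLV-Exo-Wnt5a, so that its 3 Con libraries were nearly equal and all above the exosome libraries.

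The 8 exit tunnel genes had medians of -0.15 and -0.17 against Con (Exo first, pLV-Exo-Wnt5a second), and -0.10 and -0.12 without Con replicate 1, closer to 0 than those of the stalk in both settings; the difference between roles was not tested. Rpl4, which forms part of the narrowest point of the tunnel, was at 633, 729.9 and 732 CPM in Con replicates 1 to 3, 663, 699 and 652 CPM in the Exo libraries and 647, 654 and 702 CPM in those of pLV-Exo-Wnt5a. It was the member whose lowest library was Con replicate 1, and its log2FC of -0.07 and -0.07 against Con was among the closest to 0, but was -0.13 and -0.13 without that library. Rpl17, at the tunnel exit, was at 347, 315 and 318 CPM in the Con group, 292, 298 and 294 CPM in the Exo group and 293, 283 and 302 CPM in pLV-Exo-Wnt5a, with Con above the others. Around the peptidyl transferase centre, where the peptide bond is made, and on the face that joins the small subunit, the 5 genes had medians of -0.19 and -0.20. These were -0.09 and -0.11 without Con replicate 1. Rpl3 was at 1277, 1165 and 1115 CPM (Con), 1055, 1036 and 1056 CPM (Exo) and 1030.3, 983 and 1093 CPM (pLV-Exo-Wnt5a) and Rpl8 at 970.0, 792 and 765 CPM (Con), 727, 728 and 731 CPM (Exo) and 711, 709 and 727 CPM (pLV-Exo-Wnt5a). Both separated Con from the exosome libraries. Rpl10, also near this centre, was at 620.0, 547 and 536 CPM (Con), 518, 508 and 509.9 CPM (Exo) and 505, 502 and 527 CPM (pLV-Exo-Wnt5a).

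In the head and mRNA channel of the small subunit, 8 genes had medians of -0.22 and -0.26 against Con, with 4 and 6 lower at an unadjusted p under 0.05, against 6.01% and 4.15% of all genes. Without Con replicate 1 these medians were -0.11 and -0.15, with 2 and 5 at that level, against 5.25% and 5.01% of all genes. Rps2 was at 1564, 1278 and 1238 CPM (Con), 1162, 1147 and 1217 CPM (Exo) and 1200.1, 1156 and 1144 CPM (pLV-Exo-Wnt5a) and Rps3, which lines the entry of the mRNA, at 1047, 898 and 909.9 CPM (Con), 815, 835 and 825 CPM (Exo) and 789, 805 and 812 CPM (pLV-Exo-Wnt5a). The Con values of both were higher than the 6 exosome values. The list for the body and decoding region, which also holds the head proteins Rps19 and Rps25, had 8 genes. Their medians were -0.18 and -0.21, with 2 and 5 lower at an unadjusted p under 0.05 (6.01% and 4.15% of all genes). Without Con replicate 1 the medians were -0.09 and -0.14, again with 2 and 5 (5.25% and 5.01% of all genes). Rps4x was at 780.3, 673 and 679.5 CPM in the Con group, 619, 619 and 662 CPM in the Exo group and 644, 580.4 and 653 CPM in pLV-Exo-Wnt5a. Rps6, the target of the S6 kinases downstream of mTOR, was at 547, 496 and 469 CPM in the Con group, 480.5, 442 and 473 CPM in the Exo group and 467, 429 and 468 CPM in pLV-Exo-Wnt5a, and here Con replicate 3 fell below Exo replicates 1 and 3. Rps14 was at 943, 742 and 697 CPM (Con), 679.8, 675 and 688 CPM (Exo) and 655, 650.0 and 618 CPM (pLV-Exo-Wnt5a), with one of the 3 largest within-group spreads among members tested and its highest value in Con replicate 1. The remaining member with a role of its own, Rps27a, is made as a fusion of ubiquitin and a small subunit protein. It was at 267, 298 and 286 CPM in the Con group, 300.2, 268 and 282 CPM in the Exo group and 257, 255 and 285 CPM in pLV-Exo-Wnt5a, and its log2FC of -0.01 in the Exo group was the closest to 0 of the members tested, but was -0.05 without Con replicate 1.

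Some members resemble another ribosomal protein gene, and reads of near-identical copies, pseudogenes included, may have been split between rows. Rps27l, the counterpart of Rps27, was at 61.4, 52.7 and 53.8 CPM in the Con group, 58.9, 47.1 and 48 CPM in the Exo group and 51.6, 45.7 and 53.3 CPM in pLV-Exo-Wnt5a, and its groups overlapped. Rpl6l was at 48.3, 43.2 and 44.9 CPM in the Con group, 38.8, 38.9 and 41.9 CPM in the Exo group and 39.7, 36.3 and 41.1 CPM in pLV-Exo-Wnt5a. Rpl32l had 6 to 24 counts per library, and its log2FC of -1.09 in the Exo group, the lowest of the members, came with a standard error of 0.58. Some ribosomal protein genes were missed by the rule on symbols. Fau, which encodes a small subunit protein, was at 339, 273 and 261 CPM in the Con group, 248, 257 and 259 CPM in the Exo group and 247, 246 and 242 CPM in pLV-Exo-Wnt5a. Its Con libraries were above the 6 exosome libraries. Rps3a1 was at 454, 443 and 446 CPM (Con), 414, 426 and 425 CPM (Exo) and 391, 399 and 425 CPM (pLV-Exo-Wnt5a), with 3 close Con values above the others. Rpl22l1, the counterpart of Rpl22, had higher mean values in both exosome groups than in Con with all libraries, at 34.9, 48.2 and 51.5 CPM in the Con group, 72.1, 45.6 and 48.2 CPM in the Exo group and 50.1, 42.7 and 46.8 CPM in pLV-Exo-Wnt5a, with the lowest value in Con replicate 1 and the highest in Exo replicate 1, and its groups overlapped. Its log2FC without Con replicate 1 was 0.14 in the Exo group and -0.10 in pLV-Exo-Wnt5a, so the sign of the second turned.

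The log2FC ranges of members with and without the TOP motif at the annotated start overlapped in each comparison. The 23 members with the motif had a median log2FC of -0.20 in the Exo group against Con, and the 23 with a promoter sequence and no motif within 5 bases had -0.21. For pLV-Exo-Wnt5a the medians were -0.02 and -0.02 against Exo, and -0.24 and -0.24 against Con. Without Con replicate 1 they were -0.09 and -0.12 for Exo against Con, and -0.12 and -0.15 for pLV-Exo-Wnt5a against Con, with the motif first. These are descriptions, and no test was made.

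Genes that act with the ribosome are given next, with no test between lists. The list of 10 translation elongation factors also holds Eef1e1 and the kinase Eef2k, which are not elongation factors themselves. Of the 10 tested, 7 had lower and 3 higher values in the Exo group than in Con (median log2FC -0.13). At an unadjusted p under 0.05, 0 were lower and 1 higher, against 6.01% and 8.92% of all genes. The medians were 0.02 and -0.11 in the pLV-Exo-Wnt5a against Exo and against Con comparisons. Eef2, which moves the ribosome along the mRNA, was at 6469, 5221 and 4996 CPM in the Con group, 4652, 4477 and 4985 CPM in the Exo group and 4840.3, 4665 and 4669 CPM in pLV-Exo-Wnt5a, with Con above the exosome libraries except that Con replicate 3 and Exo replicate 3 were close. Eef1e1, a partner of the aminoacyl-tRNA synthetase complex, had a log2FC of 0.39 (standard error 0.10, Q = 0.265) by edgeR in the Exo group. Of 38 initiation factors, 25 had lower and 13 higher values in the Exo group (median -0.10), with 4 lower and 6 higher at that level, against the same 6.01% and 8.92% of all genes. Without Con replicate 1, 3 were lower, against 5.25% of all genes, and 2 higher. Eif4e, the cap-binding protein that mTOR signalling acts on through its inhibitors, was at 50.2, 56.7 and 57.5 CPM in the Con group, 80.05, 65.4 and 75.1 CPM in the Exo group and 70.5, 60.6 and 60.7 CPM in pLV-Exo-Wnt5a. Its 3 Exo values were all above the Con values, in the opposite direction to the ribosomal protein genes, with a log2FC of 0.42 (standard error 0.10, Q = 0.265) by edgeR. Eif3f, a subunit of the factor eIF3, was at 511, 412 and 403 CPM (Con), 366, 364 and 381 CPM (Exo) and 368, 354 and 360.1 CPM (pLV-Exo-Wnt5a), and its log2FC for pLV-Exo-Wnt5a against Con was -0.30.

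Of 16 other mRNAs listed from background knowledge as TOP mRNAs, 11 had values below Con in the Exo libraries and 12 in those of pLV-Exo-Wnt5a (49.7% and 49.2% of all genes), with medians of -0.08 and -0.10. In the motif search, 10 of them had a promoter sequence, of which 0 held the motif at the start base and 3 within 5 bases. Rack1, a scaffold bound to the small subunit head, was at 1171, 947 and 914 CPM in the Con group, 868, 849 and 889.8 CPM in the Exo group and 854, 816 and 837 CPM in pLV-Exo-Wnt5a, and its 3 Con libraries were above the 6 exosome libraries. Vim, which encodes the intermediate filament vimentin, was the one gene of the translation-related lists with Q under 0.05, and only in the pLV-Exo-Wnt5a against Exo comparison. It was at 1975, 1625 and 1572 CPM in the Con group, 1485, 1231 and 1303 CPM in the Exo group and 2076, 1697 and 2358 CPM in pLV-Exo-Wnt5a, with a log2FC of 0.62 (standard error 0.11, Q = 0.0389) by edgeR, where 0.344% of all genes were higher at that level. Npm1, a nucleolar chaperone of ribosome assembly, was at 40.5, 49.9 and 58.3 CPM in the Con group, 75.6, 64.3 and 60.7 CPM in the Exo group and 64.6, 50.1 and 58.5 CPM in pLV-Exo-Wnt5a, with its Exo libraries all above its Con libraries and its lowest value in Con replicate 1.

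Ribosome biogenesis factors and RNA polymerase I genes were divided between both directions in the Exo group. Of 63 tested, 33 had lower and 30 higher values in the Exo group (median 0.00; 3 lower and 4 higher at an unadjusted p under 0.05, against 6.01% and 8.92% of all genes), and 40 were below Con in pLV-Exo-Wnt5a (median -0.03). Nmd3, an export adaptor of the large subunit, was at 4.18, 7.73 and 8 CPM in the Con group, 12, 9.78 and 10.3 CPM in the Exo group and 9.92, 9.84 and 11 CPM in pLV-Exo-Wnt5a, with its lowest value in Con replicate 1, and Nhp2, a snoRNP protein, was at 68, 59.2 and 60.4 CPM in the Con group, 53.6, 53.5 and 51 CPM in the Exo group and 51.6, 53.3 and 54.6 CPM in pLV-Exo-Wnt5a, with Con above the exosome libraries. Of 78 mitochondrial ribosomal protein genes, 58 had values below Con in the Exo libraries and 65 in those of pLV-Exo-Wnt5a, with medians of -0.10 and -0.11, and 4 and 6 were lower at an unadjusted p under 0.05, against 6.01% and 4.15% of all genes, while 3 and 0 were higher, against 8.92% and 4.2%. Mrps21 was at 51.1, 47.5 and 45.1 CPM (Con), 41, 42.4 and 46.9 CPM (Exo) and 39.2, 37.2 and 42 CPM (pLV-Exo-Wnt5a).

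Of 24 genes that control ribosomal protein expression, such as mTOR complex members, S6 kinases, Larp1 and Myc, 15 had lower and 9 higher values in the Exo group, with a median of -0.03, and none had Q under 0.05. Larp1, Mtor and Myc were picked from this list after the values were seen. Larp1, which binds the TOP motif, was at 138, 150.0 and 148 CPM (Con), 153, 152 and 152 CPM (Exo) and 151, 156 and 157 CPM (pLV-Exo-Wnt5a), and its 3 Con values lay just below the 6 exosome values (log2FC 0.06 in Exo). Mtor was at 222, 221 and 211 CPM (Con), 200.1, 199 and 216 CPM (Exo) and 205, 209 and 215 CPM (pLV-Exo-Wnt5a) and Myc at 87.6, 70.7 and 78.3 CPM (Con), 79.4, 80.6 and 77.4 CPM (Exo) and 68.6, 72.8 and 81 CPM (pLV-Exo-Wnt5a). Both overlapped between the groups. Of 15 targets of the integrated stress response, in which translation initiation is slowed, 8 had higher and 7 lower values in the Exo group than in Con (2 higher and 4 lower at an unadjusted p under 0.05, against 8.92% and 6.01% of all genes), and 9 had higher and 6 lower values in pLV-Exo-Wnt5a (3 higher and 4 lower at that level, against 4.2% and 4.15%). The medians were 0.07 and 0.12. Phgdh, the first enzyme of serine synthesis, was at 648, 496 and 482 CPM in the Con group, 413, 414 and 428 CPM in the Exo group and 393, 407 and 408 CPM in pLV-Exo-Wnt5a, with Con above the 6 exosome libraries. Of 18 proliferation genes, 11 had lower values in the Exo group (median -0.12), whereas 14 were above Exo in pLV-Exo-Wnt5a (median 0.19), and 6 of these had an unadjusted p under 0.05, against 5.07% of all genes. Mcm5, a subunit of the replicative helicase, was at 37.2, 30.7 and 31 CPM in the Con group, 27.5, 23.5 and 22.7 CPM in the Exo group and 32.1, 31.6 and 32.6 CPM in pLV-Exo-Wnt5a.

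Among further genes with the smallest p-values of their lists, both directions occurred, and none had Q under 0.05. In the Exo group against Con, values were higher for Eif1ax, an initiation factor (log2FC 0.46), for Larp4, an RNA-binding protein (0.84), for Rheb, the activator of mTOR complex 1 (0.23), and for the mitochondrial ribosomal genes Mrpl18 (0.28) and Mrpl50 (0.34). They were lower for Psat1, of serine synthesis (-0.31), and for Mcm3 (-0.39). For pLV-Exo-Wnt5a against Exo, values were lower for the initiation factors Eif3a (-0.45) and Eif5 (-0.42), for Taf1d of the polymerase I machinery (-0.56) and for nucleolin, Ncl (-0.33), and higher for Eef2k, the kinase that inhibits Eef2 (0.18), and Trp53 (0.17). For pLV-Exo-Wnt5a against Con, they were lower for Eef1b2 (-0.21), Eif3i (-0.22), the mTOR subunit Mlst8 (-0.17), Ddit4, an inhibitor of mTOR (-0.27), and Mrpl48 (-0.26), and higher for cyclin D1, Ccnd1 (0.40).

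Leaving out Con replicate 1 brought most of these list medians closer to 0. In the order Exo and pLV-Exo-Wnt5a against Con, they were then -0.08 and -0.03 for elongation factors, -0.04 and -0.07 for initiation factors, -0.07 and -0.09 for the other TOP mRNAs, and -0.04 and -0.05 for mitochondrial ribosomal protein genes. At an unadjusted p under 0.05, 1 and 3 mitochondrial ribosomal protein genes were then lower, against 5.25% and 5.01% of all genes, and 2 and 1 higher. In the Exo group 3 biogenesis genes were lower, against 5.25% of all genes, and 2 higher. The share of all genes that were higher in this setting is not given here. Biogenesis genes had medians of 0.01 and -0.04, proliferation genes -0.08 and 0.12, and stress response targets 0.08 and 0.10. For the genes that control ribosomal protein expression the medians were 0.02 and -0.02, so the sign of the first turned. Eef2 had a log2FC of -0.13 and -0.11 in this setting, Eif3f -0.14 and -0.18, Phgdh -0.23 and -0.28, and Rack1 -0.11 and -0.15. For pLV-Exo-Wnt5a against Con, Eef1b2 then had -0.11, Eif3i -0.12 and Mlst8 -0.11, and Larp1 had 0.03 in the Exo group.

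**Figure D5:**
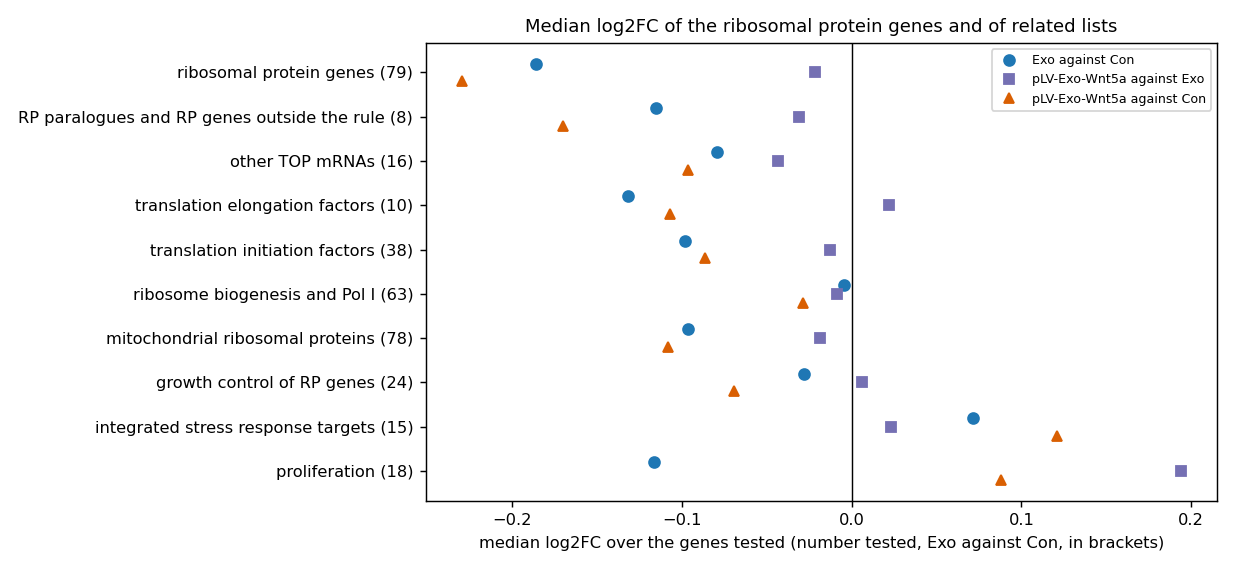
Median log2FC (x axis) over the tested genes of the ribosomal protein genes and of 9 related lists (rows, number tested in brackets), in the 3 comparisons (symbols). The ribosomal protein genes have the lowest medians against Con, -0.19 (Exo) and -0.23 (pLV-Exo-Wnt5a), and no test between lists was made.

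Markers of other cell types were also compared beside this difference. Summed over 12 genes, microglia and macrophage markers were at 20.2 to 21.3 CPM in the Con group, 9.75 to 11.8 CPM in the Exo group and 17.1 to 23.4 CPM in pLV-Exo-Wnt5a, and 4 of the 12 were at 1 CPM or more in every library. They were thus lower in Exo than in the other groups, whereas the summed share of the ribosomal protein genes overlapped between both exosome groups. Fibroblast and mural markers (8 genes) summed to 24.1 to 32.2 CPM in the Con group, with Con replicate 1 highest, 21.2 to 24.4 CPM in the Exo group and 23.5 to 23.9 CPM in pLV-Exo-Wnt5a. Most of the Con sum was Pdgfrb, and 4 of the 6 tested markers had higher values than Con in each exosome group (medians 0.08 and 0.19; 0.20 and 0.22 without Con replicate 1). Astrocyte markers summed to 4987 to 6024 CPM in the Con group, with Con replicate 1 highest, 4877 to 5005 CPM in the Exo group and 6576 to 6908 CPM in pLV-Exo-Wnt5a. This sum followed Gfap, the astrocyte filament gene, which was higher for pLV-Exo-Wnt5a against Exo (log2FC 0.86, Q = 3.36e-05 by edgeR; 0.344% of all genes were higher at Q under 0.05), whereas 5 of the 8 markers had lower values there (median -0.16). In the Exo group 5 of the 8 had higher values than Con (median 0.14, or 0.07 without Con replicate 1), although the sum was not higher. Oligodendrocyte markers summed to 2898 to 3269.8 CPM in the Con group, 2669.6 to 2953 CPM in the Exo group and 2580.4 to 2860.4 CPM in pLV-Exo-Wnt5a. Of 9 tested, 7 had lower and 2 higher values in the Exo group than in Con (median -0.11, or -0.06 without Con replicate 1). At an unadjusted p under 0.05, 3 were lower and 0 higher, against 6.01% and 8.92% of all genes. In pLV-Exo-Wnt5a 5 had lower and 4 higher values than Con (median -0.19, or -0.11 without Con replicate 1). Neuron markers summed to 3457 to 3500.5 CPM in the Con group, 3431 to 4054 CPM in the Exo group and 3244 to 4149.6 CPM in pLV-Exo-Wnt5a. Of these 10 markers, 8 had higher values in the Exo group than in Con, 6 of them at an unadjusted p under 0.05 (8.92% of all genes; median log2FC 0.29), and 8 in pLV-Exo-Wnt5a, 3 of them at that level (4.2% of all genes; median 0.09). These medians were 0.22 and 0.07 without Con replicate 1. In that setting 2 markers, Dcx and Map2, were lower in pLV-Exo-Wnt5a at that level (log2FC -0.26 and -0.27), against 5.01% of all genes. For pLV-Exo-Wnt5a against Exo, 3 neuron markers were lower at that level (6.91% of all genes), among them Dcx (log2FC -0.60, Q = 0.0113 by edgeR). Of 12 mitochondrially encoded genes tested, 11 had higher values in the Exo group (median 0.28; 0.17 without Con replicate 1) and 6 in pLV-Exo-Wnt5a (median 0.00; -0.06 without it). Their summed share of the counts did not follow these medians, at 0.967% ± 0.215, 0.956% ± 0.119 and 0.988% ± 0.0815 in Con, Exo and pLV-Exo-Wnt5a (SD, n = 3 each), and COX1 had a log2FC of -0.32 in the Exo group, or -0.54 without Con replicate 1. The part of the cell type markers and of the mitochondrially encoded genes in the values of the ribosomal protein genes was not tested.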

How the data were processed

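Groups (Con, Exo, pLV-Exo-Wnt5a; 3 RNA-seq libraries each) follow the sample labels. The values are raw gene counts, whole numbers as the authors deposited them. The paper names HISAT2 for alignment, whereas the submitters' processing notes list Bowtie2, RSEM 1.3.1 and DESeq2 1.4.5 without roles, so the counts may be rounded estimates in which reads of near-identical copies were shared out. The genome build and annotation are not named in the sources used here, and the symbols and gene IDs of the counts are those of the mouse. No column lacked a sample (0).

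From the deposited counts, pairs of groups (6 libraries) were filtered with filterByExpr, normalized by TMM and tested with edgeR 4.0.16 (R 4.3.3; quasi-likelihood, Q by Benjamini-Hochberg over all genes tested). CPM used TMM over 9 libraries. Standard errors came from the F statistic. The steps were tested on simulated data. Alternatives were DESeq2 1.42.0, RLE or member-free TMM, other filters and thresholds, all 9 libraries, the replicate number as a block, and leaving out each library.

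Members and lists were chosen with earlier results of these data known. The naming rule took, per comparison and direction, the 4 members with the smallest p, the 3 with the largest within-group SD, paralogues with their partners and the leading pair of each role group; of each list, genes with Q under 0.05 or otherwise the 2 with the smallest p, of which the text gives a part. Some genes that the rule takes are not reported here. Its step on levels per length could not be applied. Gene lengths were not used here, so levels are not compared between genes. Replicates differed by more than sampling noise (chi-square per degree of freedom 7.33 to 48.4). Paralogues Rpl10l, Rps4l and Rpl26l1 were not analysed here.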

Additional observations from a re-analysis of the deposited data

How the results depend on the processing

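The count of members with Q under 0.05 stayed at 0 in the 3 comparisons under RLE, TMM without the members, both other filters (none; 10 counts per library), edgeR fitted on 9 libraries, DESeq2 on 2 groups and each left-out library. DESeq2 on all 9 libraries called 1 member, Rps16, for pLV-Exo-Wnt5a against Con (log2FC -0.32, Q = 0.0388). An unadjusted p under 0.05 gave 28 members in the Exo against Con and 48 in the pLV-Exo-Wnt5a against Con comparison. Leaving out each library in turn moved the median log2FC from -0.25 to -0.10 (Exo against Con), from -0.29 to -0.14 (pLV-Exo-Wnt5a against Con) and from -0.04 to -0.01 (pLV-Exo-Wnt5a against Exo; -0.0062 without pLV-Exo-Wnt5a replicate 2 and -0.043 without replicate 3). The medians nearest 0 against Con came from leaving out Con replicate 1. Left-out libraries gave, in the comparison of both exosome groups, Rps27 values from -0.0024 (without Exo replicate 2) to 0.048 and Rps29 values from -0.017 (without pLV-Exo-Wnt5a replicate 3) to 0.043, so both changed sign. The share of counts without mitochondrially encoded genes was 3.97%, 3.55% and 3.48% in Con, Exo and pLV-Exo-Wnt5a, and over protein-coding genes 3.99%, 3.56% and 3.48%, so it was slightly higher in each group.

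The replicate numbers did not pair the samples: the correlations between same-numbered libraries lay between -0.203 and 0.063. With the replicate block, 0 members had Q under 0.05, and the medians were -0.18, -0.02 and -0.23 in the order Exo against Con, pLV-Exo-Wnt5a against Exo and pLV-Exo-Wnt5a against Con.

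With 3 libraries a group, the spread between libraries limits what single members can show, and floors of 0.0727 to 0.0913 CPM leave Rpl3l and Rpl39l unmeasured. Abundance was not matched between members and other genes.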

Other observations

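Rows of the table that carry a ribosomal pseudogene name were left out by the rule. There were 9 of them, of which 8 were marked as protein-coding. Rpl34-ps1 was the highest of these, with 410 to 629 counts per library (10.3 to 16.3 CPM), and the other protein-coding ones reached at most 56 counts. The protein-coding pseudogene rows together took 0.00128% to 0.00196% of the counts of a library. Other ribosomal-like rows outside the rule were Rpl37rt (29.1 to 36.6 CPM), Rps27rt (9.01 to 12.9 CPM), Rpl36al (35.3 to 46.8 CPM) and Rpl7l1 (80.3 to 97.5 CPM).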
